A study of Drosophila melanogaster with 9 samples.

Results

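The proteasome genes of the developing wing were followed through knockdown of Psi and of Myc in Drosophila melanogaster. The members are the genes whose symbols name a subunit of the 20S core (Prosalpha and Prosbeta) or of the 19S cap (Rpn and Rpt), plus Pomp. The rule gave 38 of the 17471 genes in the count tables, namely 7 alpha ring genes, 7 beta ring genes, 9 genes of the cap base, 8 genes of the cap lid, Rpn10, Pomp and 5 paralogs. Messenger RNA was sequenced from whole larval wing imaginal discs, the epithelial sacs that become the adult wing, in 3 Psi RNAi, 3 Myc RNAi and 3 control libraries. Every group carried tubulin-GAL4, which drives expression in all tissues, together with tsGAL80, a temperature-sensitive block on GAL4. Psi RNAi discs also carried the hairpin V105135 against Psi, a protein that binds DNA and RNA, and Myc RNAi discs the hairpin V2947 against Myc, a transcription factor that promotes growth. Control discs were labelled as the driver over a plus chromosome, but their count files bear the name of the strain W1118, and the control genotype is therefore not certain. Hairpins were expressed in all tissues of the larva for 3 days before collection. The sources do not agree on the age of the larvae or on the rearing temperature. Each library came from 60 pooled discs. Whether the pools were from different crosses is not stated, and p-values therefore reflect pool-to-pool spread, which may in part be technical.

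The proteasome degrades proteins that carry ubiquitin chains. Its core is a barrel of stacked alpha and beta rings, and only some beta subunits cut peptide bonds. The cap binds the substrate, removes the ubiquitin and uses the Rpt ATPases to unfold the protein and thread it into the core. Pomp is a chaperone (Ump1 in yeast) that assists assembly of the core and is itself degraded as the core matures. In animals the subunit genes are known to be induced together by transcription factors of the Nrf1 type, of which Cnc is the fly relative.

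Of the 38 genes, 35 passed the filter on low counts and were tested among 9235 genes. Levels are given as CPM (counts per 1000000 of the scaled library total). Genes with an adjusted p below 0.01 are called. Together the members took between 0.680% and 0.786% of the counts of a library. Total gene counts ran from 26287040 to 34401160. Psi itself stood at 74.7, 65.7 and 61.7 CPM in Psi RNAi, against 335, 322 and 323 CPM in control, a log2 fold change of -2.28 ± 0.08 (SE, adjusted p = 1.1e-06). Myc stood at 132, 109 and 103 CPM in Myc RNAi, against 149, 147 and 139 CPM in control, and the change of -0.34 ± 0.09 was not called (adjusted p = 0.015), although it was with the replicate number as a block (adjusted p = 0.0097). In Psi RNAi the Myc transcript differed from control by -0.39 ± 0.09 and was likewise not called (adjusted p = 0.021). DESeq2, the method of the study, called Myc lower in both knockdowns. Over 14 alternative fits the adjusted p of Myc ran from 0.00085 to 0.18 in Psi RNAi and from 0.00083 to 0.12 in Myc RNAi. All 8 wing disc markers passed the filter, and their summed level lay between 1895 and 2131 CPM in Psi RNAi, 2142 and 2247 in Myc RNAi, and 2007 and 2065 CPM in control. Markers of tissues that lie beside the disc varied between libraries. The 6 fat body markers summed to 6639, 740 and 252 CPM in Psi RNAi, 2411, 1046 and 801 in Myc RNAi, and 10899, 3560 and 686 CPM in control, and none of them was at 0 in any library. The sum of 11 markers of salivary gland and gut reached 1813 CPM in Psi RNAi replicate 1 and 494 CPM in Myc RNAi replicate 3, was between 3.83 and 39.6 CPM in the other libraries, and included Amy-p and Amy-d, which were at 0 in some. Different genes led these sums. In Psi RNAi replicate 1 they were Jon65Aiv (1092 CPM) and Jon65Aiii (403 CPM). In Myc RNAi replicate 3 they were Sgs7 (142 CPM) and Sgs3 (113 CPM). The 6 haemocyte markers summed to between 135 and 240 CPM in Psi RNAi, 141 and 255 in Myc RNAi, and 270 and 576 CPM in control, and the 5 larval muscle markers to between 39.7 and 216 CPM in Psi RNAi, 63.8 and 109 in Myc RNAi, and 52.4 and 88.6 CPM in control.

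Pomp had the smallest p-value of the members in every comparison. It stood at 187, 183 and 177 CPM in Psi RNAi, 95.6, 101 and 93.8 in Myc RNAi, and 110, 114 and 110 CPM in control. No group overlapped another, with the Psi RNAi libraries highest and the Myc RNAi libraries lowest. In Psi RNAi discs Pomp rose 1.64-fold over control, a log2 fold change of 0.71 ± 0.04 (SE, 95% interval 0.62 to 0.81, adjusted p = 2.2e-05). In Myc RNAi discs Pomp fell to 96.9 ± 3.9 CPM, against 111 ± 2.1 CPM in control (SD, n = 3 each), a log2 fold change of -0.20 ± 0.04 (SE, 95% interval -0.29 to -0.10, adjusted p = 0.0066). Between the knockdowns it was 1.88-fold higher in Psi RNAi than in Myc RNAi (0.91 ± 0.04 on the log2 scale, adjusted p = 2.6e-07). The rise in Psi RNAi passed the threshold in all 14 alternatives, with log2 fold changes from 0.68 to 0.73. The fall in Myc RNAi was lost in 8 of 14, among them each fit without control replicate 1, 2 or 3 (adjusted p = 0.019, 0.029 and 0.027) and without Myc RNAi replicate 1 or 3 (adjusted p = 0.026 and 0.023). Over all 14 its log2 fold change ran from -0.23 to -0.04 and its adjusted p from 0.0012 to 0.40, the weakest being total-count scaling.

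**Figure D1:**
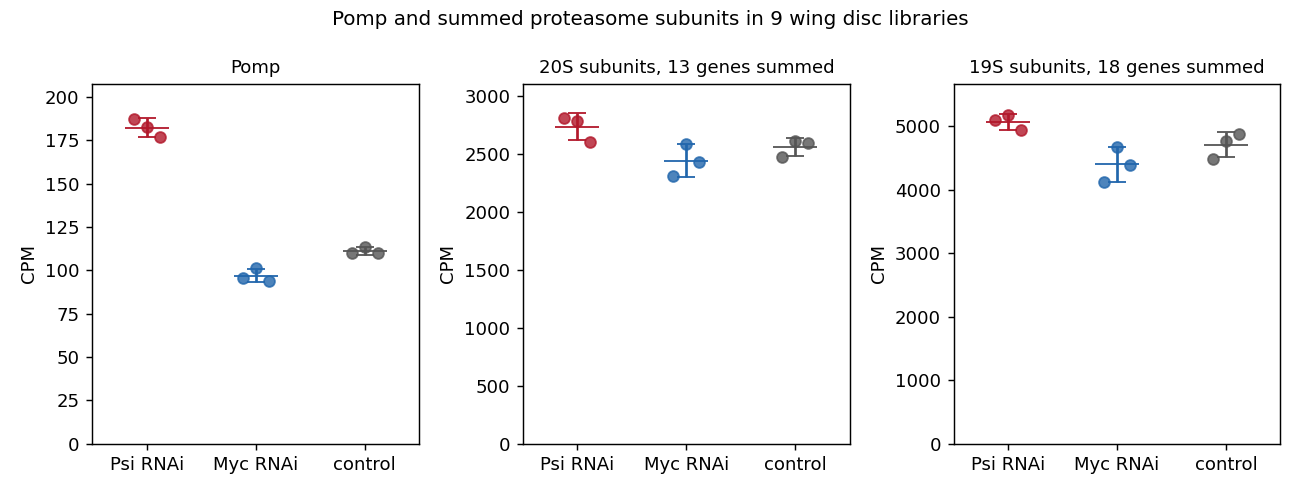
CPM in each library (points), group mean (horizontal line) and SD (bar, n = 3) for Pomp and for the summed 20S and 19S subunits, in Psi RNAi, Myc RNAi and control discs. Pomp stood at 177 to 187 CPM in Psi RNAi and at 110 to 114 CPM in control, whereas in proportion to their level the summed subunits differed less.

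Relative to the subunit genes, Pomp gave 2.37, 2.30 and 2.35 counts per 100 counts of 31 subunit genes in Psi RNAi, 1.49, 1.40 and 1.38 in Myc RNAi, and 1.58, 1.54 and 1.47 in control. This share is taken within a library and does not depend on how libraries are scaled. The Psi RNAi libraries were all above the other groups, whereas Myc RNAi and control overlapped. The share averaged 2.34 ± 0.04 in Psi RNAi and 1.53 ± 0.05 in control (SD, n = 3 each, exact two-sided permutation test p = 0.1, the smallest that 3 against 3 allows). In Myc RNAi it averaged 1.42 ± 0.06, against the same 1.53 ± 0.05 in control (SD, n = 3 each, exact permutation test p = 0.2). Between same-numbered Myc RNAi and control libraries the share differed by -0.09, -0.14 and -0.10, lower in all 3 pairs (exact paired permutation test p = 0.25, the smallest that 3 pairs allow).

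Pomp lies on chromosome arm 2L at 20787656 to 20789098, plus strand, of Release 6 of the fly genome. The end of its last exon shares 437 bases with exons of vari on the other strand. The libraries were strand-specific and the count files are marked as counted on the reverse strand, and vari, which encodes a scaffold protein of septate junctions, did not move with Pomp: it stood at 330, 344 and 362 CPM in Psi RNAi, 348, 351 and 367 in Myc RNAi, and 335, 341 and 337 CPM in control (0.03 ± 0.04 and 0.07 ± 0.04 on the log2 scale for Psi RNAi and Myc RNAi against control, neither called). The 18 other genes that reach within 50 kb of the Pomp start were also examined, a window chosen after their values were seen. Of these, 10 were tested. In Psi RNAi 2 were called, CG31673 at -1.55 ± 0.18 (adjusted p = 0.0012, and 0.027 without control replicate 1 and Psi RNAi replicate 1) and Oseg5, which encodes a protein of transport within cilia, at -4.87 ± 0.40 (adjusted p = 0.00012). In Myc RNAi only Oseg5 was called among them (-4.93 ± 0.40, adjusted p = 1.1e-05). Oseg5 stood at 0.360, 0.211 and 0.328 CPM in Psi RNAi, 0.282, 0.433 and 0.141 in Myc RNAi, and 7.71, 8.34 and 10.6 CPM in control. Oseg5, 48.2 kb from Pomp, was below control in both RNAi groups. CG31673 and CG9328 stood at -0.21 ± 0.17 and -0.0004 ± 0.10 in Myc RNAi against control, neither called. The other tested genes, from Fs(2)Ket on one side to CG9331 on the other, were not called in either knockdown, the most distant from 0 being CG9328 in Psi RNAi (-0.44 ± 0.10, adjusted p = 0.026). Whether the stocks differ in sequence at this locus was not tested.

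**Figure D2:**
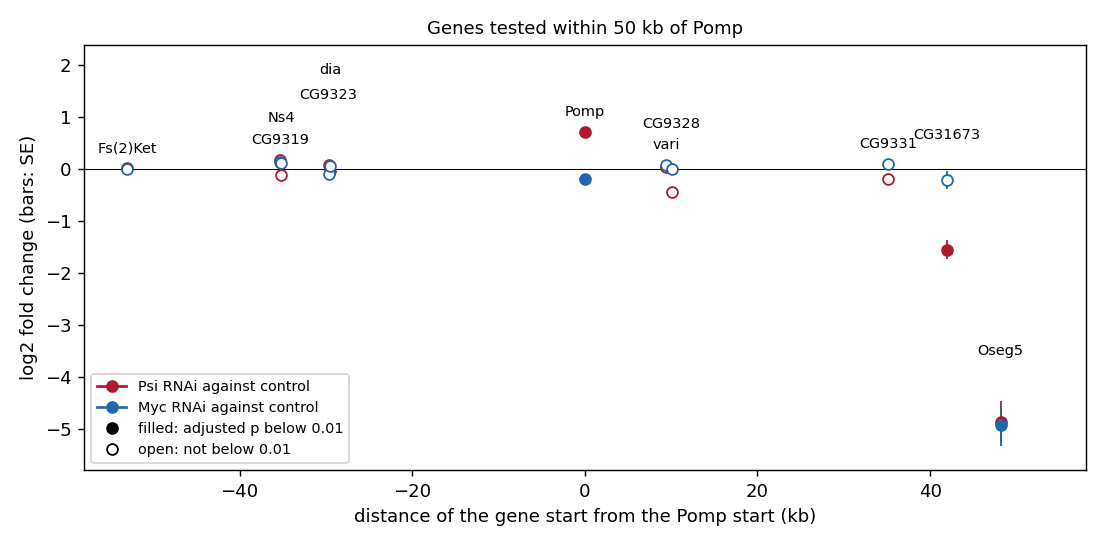
Log2 fold change (bars, SE) of Pomp and the 10 tested genes within 50 kb, against the distance of each gene's start from that of Pomp in kb, for Psi RNAi (red) and Myc RNAi (blue) against control; filled points passed an adjusted p of 0.01. Pomp rose in Psi RNAi, and its nearest neighbours were not called. CG31673 was called lower in Psi RNAi only, and Oseg5, at 48.2 kb, was far below control in both knockdowns.

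Unlike Pomp, the subunits of the proteasome itself were not called in Psi RNAi, as was the case for most genes tested. Among the 35 members tested, 1 was called higher (Pomp) and 0 lower by edgeR against control, beside 1.80% of all tested genes called higher and 2.27% called lower. At an unadjusted p below 0.05, 8 members were higher and 0 lower, beside 13.1% and 14.4% of all tested genes. DESeq2, run on all 38 members, also called Pomp alone, beside 450 higher and 424 lower over all genes. Leaving aside Prosalpha1, whose counts are treated apart, all 31 core and cap subunits had positive log2 fold changes, from 0.03 to 0.16 with a median of 0.11, whereas the median of all tested genes was -0.01 and 47.7% of them were positive. The 95% intervals of the 31 subunits lay between -0.08 and 0.34, below the interval of Pomp, and 6 of them excluded 0. In 14 of the 35 members all Psi RNAi libraries were above all control libraries, beside 16.4% of all tested genes. Libraries of 1 group differed by a comparable amount. Relative to the control mean, the median subunit stood at 0.12, 0.13 and 0.03 on the log2 scale in Psi RNAi replicates 1, 2 and 3, against -0.06, 0.02 and 0.04 in control replicates 1, 2 and 3. The lowest control library, replicate 1, was the one with 10899 CPM of fat body markers, the most in control. The lowest Myc RNAi library, replicate 1, also had the most of its group (2411 CPM). The lowest Psi RNAi library, replicate 3, had the least of its group (252 CPM). Without control replicate 1 and Psi RNAi replicate 1, the libraries richest in these markers in their groups, the median over the tested members was 0.05, against 0.11 with them, and the part of neighbouring tissue in the shift was not tested further. In these whole-disc libraries, fewer cells of a type and less RNA per cell cannot be told apart.

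The summed CPM of all 38 members was 8108, 8150 and 7717 in Psi RNAi, 6528, 7369 and 6918 in Myc RNAi, and 7070, 7507 and 7582 in control. Psi RNAi libraries were all above the rest, and Myc RNAi overlapped control. The sum was higher by 605 CPM in Psi RNAi than in control (exact two-sided permutation test p = 0.1, the smallest possible here) and differed by -448 CPM between Myc RNAi and control (exact permutation test p = 0.2), being lower in all 3 same-numbered pairs (exact paired permutation test p = 0.25). The sum was 1053 CPM higher in Psi RNAi than in Myc RNAi (exact permutation test p = 0.1), a difference that was 269 CPM with total-count scaling (exact permutation test p = 0.3).

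**Figure D3:**
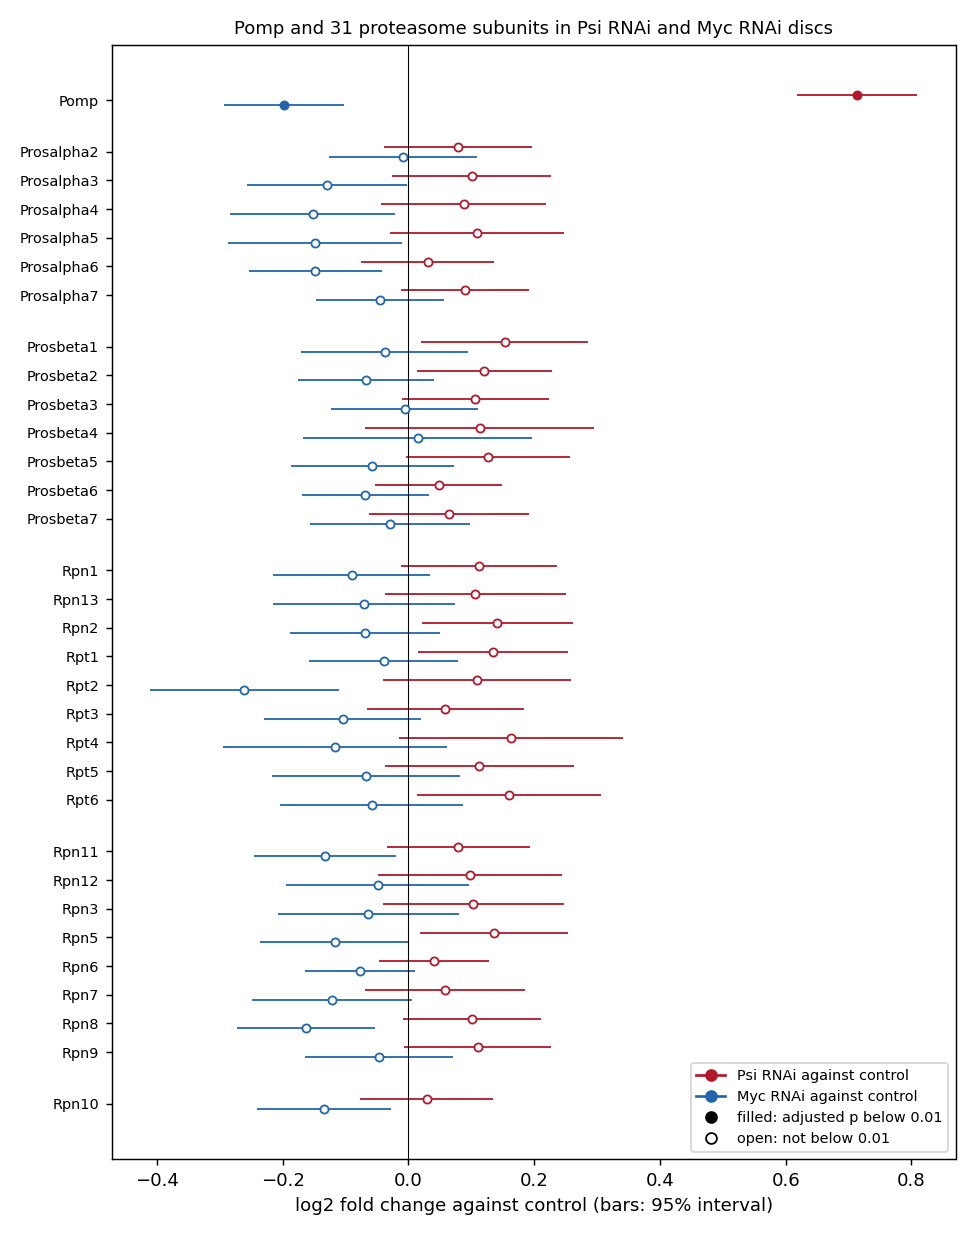
Log2 fold change of Pomp and 31 subunits with 95% intervals, Psi RNAi (red) above Myc RNAi (blue) in each row, both against control, grouped as Pomp, alpha ring, beta ring, cap base, cap lid and Rpn10; filled points passed an adjusted p of 0.01. Pomp alone is filled, at 0.71 and -0.20, and the open red points all lie to the right of 0, between 0.03 and 0.16.

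In Myc RNAi discs 0 members were called higher and 1, Pomp, was called lower, beside 7.60% and 11.4% of all tested genes. At an unadjusted p below 0.05, 9 members were lower and 0 higher, beside 22.4% and 19.1% of all tested genes. DESeq2, run on all 38 members, called 2 lower, Pomp and Rpt2, and 0 higher, beside 1211 lower and 1140 higher over all genes. Of the 31 subunits, 30 had negative log2 fold changes, with a range from -0.26 to 0.01 and a median of -0.07, beside a median of -0.03 over all tested genes, of which 54.3% were negative. In 8 of the 35 members all Myc RNAi libraries were below all control libraries, beside 24.3% of all tested genes, so this share was close to that of genes in general. Myc RNAi replicate 1 was lowest: the median subunit stood at -0.16, 0.01 and -0.09 relative to the control mean in Myc RNAi replicates 1, 2 and 3. With libraries scaled to their total counts only, the median of all tested genes was itself 0.13 and that of the members 0.08, so the sign of the members turned, while their distance below all genes stayed at -0.04 as with TMM scaling. Rpt2, an ATPase of the cap whose tail helps to open the gate of the core, had the largest difference among the subunits. It stood at 326, 335 and 301 CPM in Psi RNAi and 235, 271 and 239 in Myc RNAi, against 282, 310 and 300 CPM in control. The Myc RNAi libraries were all below the control libraries, but the log2 fold change of -0.26 ± 0.07 was not called (adjusted p = 0.016). The replicate number was also fitted as a block over all 9 libraries, Psi RNAi included, although only Myc RNAi and control were treated as paired. In that fit Rpt2 was called (-0.26, adjusted p = 0.0043) and the members called lower numbered 2.

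With Psi RNAi set directly against Myc RNAi, all 31 core and cap subunits had positive log2 fold changes, beside 52.0% of all tested genes. By edgeR 5 of these subunits were called, a share not far from that of genes in general. Of the 35 members, 6 were called higher in Psi RNAi than in Myc RNAi and 0 lower, beside 12.8% and 9.53% of all tested genes, and 28 were higher and 0 lower at an unadjusted p below 0.05, beside 23.4% and 20.7% of all tested genes. DESeq2, run on all 38 members, called 13 higher and 0 lower, beside 1356 higher and 1233 lower over all genes. The 6 were Pomp, Rpt2, Rpn8, Rpn5, Rpn11 and Prosalpha5. In 25 of the 35 members all Psi RNAi libraries were above all Myc RNAi libraries, beside 24.2% of all tested genes. The median over the members was 0.18, and the median over all tested genes 0.01. Rpn8 and Rpn11 form the pair at the centre of the lid in which Rpn11 removes ubiquitin chains from the substrate. Rpn8 stood at 249.5, 246 and 244 CPM in Psi RNAi, against 191, 218 and 206 CPM in Myc RNAi (0.26 ± 0.05, adjusted p = 0.0025), and at 224, 232 and 232 CPM in control. Rpn11 stood at 243, 240 and 226 CPM in Psi RNAi, against 192, 212 and 209 CPM in Myc RNAi (0.21 ± 0.05, adjusted p = 0.0094), and at 216, 224 and 231 CPM in control. Every Psi RNAi library was above every Myc RNAi library for both genes, and control lay between the group means. Rpn5, a structural lid subunit, stood at 368, 359 and 349 CPM in Psi RNAi, against 279, 316 and 309 CPM in Myc RNAi (0.25 ± 0.05, adjusted p = 0.0047), and at 315, 330 and 335 CPM in control. For Rpt2, whose CPM were given above, the difference was 0.37 ± 0.07 (adjusted p = 0.0022). Prosalpha5, the only core subunit called, stood at 193, 179 and 170.5 CPM in Psi RNAi, against 141, 160 and 152 CPM in Myc RNAi (0.26 ± 0.06, adjusted p = 0.0096), and at 160, 170 and 173 CPM in control. None of these 5 subunits was called between Psi RNAi and control or between Myc RNAi and control. The count of 6 rested on single libraries: it was 1 without Psi RNAi replicate 2, 2 without Myc RNAi replicate 1 or 3, 3 without Psi RNAi replicate 1 and 11 without Myc RNAi replicate 2. Among the alternatives, the call of Rpn11 was lost in 12 of 14 (adjusted p up to 0.35), that of Prosalpha5 in 10 (up to 0.18), Rpn5 in 7 (up to 0.13), Rpt2 in 4 (up to 0.019) and Rpn8 in 3 (up to 0.073). With total-count scaling only Pomp was called, the median of all tested genes then being -0.14.

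Differences between the groups of subunits were not tested. Against control, the 6 alpha ring genes without Prosalpha1 had a median of 0.09 in Psi RNAi and -0.14 in Myc RNAi, and the 7 beta ring genes 0.11 in Psi RNAi and -0.04 in Myc RNAi. The beta ring includes the proteolytic subunits Prosbeta1, Prosbeta2 and Prosbeta5, which were 0.15, 0.12 and 0.13 in Psi RNAi and -0.04, -0.07 and -0.06 in Myc RNAi on the log2 scale against control, none of them called. The 9 base genes had a median of 0.11 in Psi RNAi and -0.07 in Myc RNAi, and the 8 lid genes 0.10 in Psi RNAi and -0.10 in Myc RNAi. Rpn10, a receptor for ubiquitin chains that sits between base and lid, was 0.03 in Psi RNAi and -0.13 in Myc RNAi. Within the alpha ring, beta ring, base and lid the SD of log2 fold changes among genes was 0.03 to 0.04 in Psi RNAi. This was below the median standard error of a single subunit, 0.06. In Myc RNAi the SD was 0.03 to 0.07, on both sides of that error.

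Levels can be compared between genes only per length. On the scale of CPM per kb of annotated exon, the 31 subunits spanned from 110 for Rpn13 to 262 for Prosalpha2 in Psi RNAi. For the same genes the span was from 97.3 to 247 in Myc RNAi and from 102 to 248 in control. Pomp stood at 167 CPM per kb in Psi RNAi, 88.7 in Myc RNAi and 102 in control. It was thus at or below the lowest subunit in Myc RNAi and control and among the subunits in Psi RNAi, where their median was 178. In the alpha ring Prosalpha2 was highest, with 246, 246 and 232 CPM in Psi RNAi, 214, 241 and 227 in Myc RNAi, and 222, 238 and 225 CPM in control, and Prosalpha5 was lowest. In the beta ring Prosbeta5, which carries the chymotrypsin-like site, was highest, with 281, 264 and 250 CPM in Psi RNAi, 223, 249 and 227 in Myc RNAi, and 233, 249 and 246 CPM in control. Prosbeta4 was lowest there in control at 165 CPM per kb, with 152, 150 and 134 CPM in Psi RNAi, 124, 152 and 131 in Myc RNAi, and 127, 140 and 136 CPM in control; Prosbeta7, at 173 CPM per kb in Psi RNAi and 162 in Myc RNAi, was lowest in the knockdowns. For Prosalpha2 and Prosbeta4 the groups overlapped, whereas for Prosbeta5 the Psi RNAi libraries were all above the others.

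In the cap base Rpt2 was highest in Psi RNAi and control, at 197 and 183 CPM per kb, and Rpt1 in Myc RNAi, at 165. Rpn13, a ubiquitin receptor, was lowest, with 191, 186 and 174 CPM in Psi RNAi, 154, 175 and 159 in Myc RNAi, and 159, 176 and 178 CPM in control. In the lid Rpn11 was highest, at 196, 169 and 185 CPM per kb in Psi RNAi, Myc RNAi and control, and Rpn3 lowest, at 128, 114 and 120. Rpn3 had 237, 242 and 226 CPM in Psi RNAi, 193, 225 and 210 in Myc RNAi, and 205, 222 and 230 CPM in control. Per gene, the highest CPM belonged to Rpn2, a scaffold subunit of the base, with 570, 605 and 579 CPM in Psi RNAi, 478, 536 and 502 in Myc RNAi, and 509, 525 and 557 CPM in control. Every Psi RNAi library was above every control library for Rpn2, and with 0.14 ± 0.05 (adjusted p = 0.12) it had the smallest p of the canonical subunits in that comparison, without passing the threshold.

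**Figure D4:**
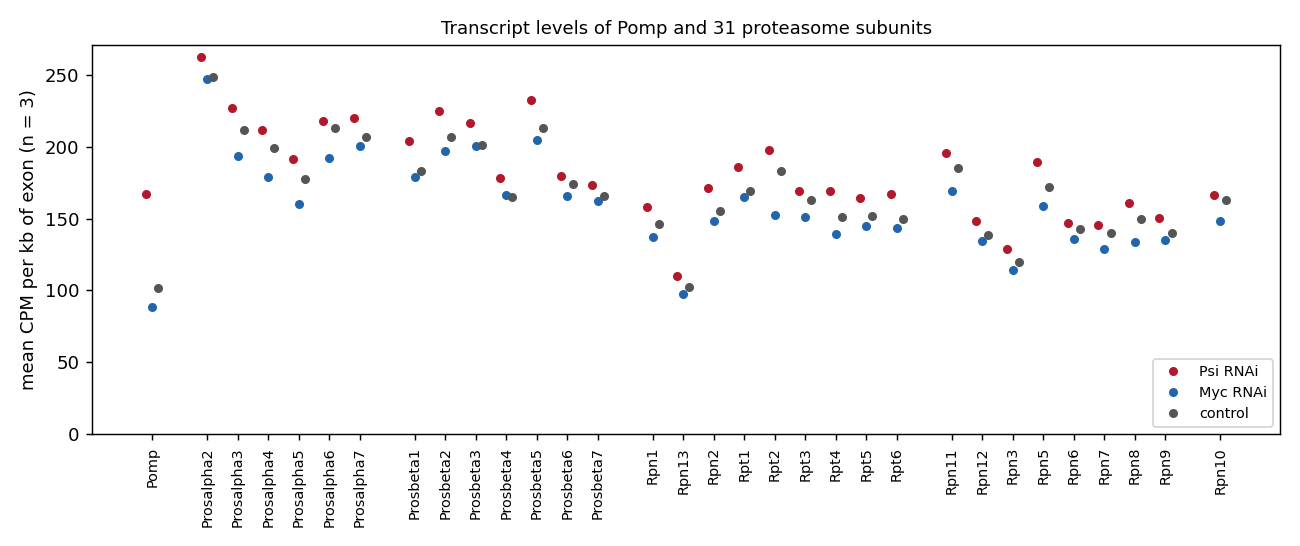
Mean CPM per kb of exon (n = 3 libraries) of Pomp and 31 proteasome subunits in Psi RNAi (red), Myc RNAi (blue) and control (grey). The subunits lie between 97.3 and 262 in all groups, and Pomp is at the lower edge in Myc RNAi and control (88.7 and 102) and among the subunits in Psi RNAi (167).

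Prosalpha1 was the exception among the canonical subunits, with only 0.467, 0.0705 and 0.146 CPM in Psi RNAi, 0.507, 0.433 and 0.354 in Myc RNAi, and 0.302, 0.442 and 0.420 CPM in control. It is annotated on chromosome arm 2R at 7827303 to 7828678, minus strand. A neighbouring gene, CG30382, lies on the same strand at 7830413 to 7831771, its start 3110 bases away, and in the annotation both have coding exons of 76, 177 and 479 bases and a coding length of 732 bases. CG30382 had 9 counts and Prosalpha1 95 counts over all 9 libraries. Pairs that aligned to more than one place stand outside the gene counts and made up 9.52% to 15.8% of the pairs of a file. The level of Prosalpha1 is therefore taken as not measured, and whether its pairs are among those was not tested. Its fitted values (-0.76 ± 0.62 in Psi RNAi and 0.16 ± 0.58 in Myc RNAi against control, -0.91 ± 0.61 in Psi RNAi against Myc RNAi) were not called. Among the members tested it was the only one with a negative value in Psi RNAi.

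The 5 paralogs were at most weakly present, and some Drosophila genes of this kind are known for expression in the testis. Rpt3R stood at 5.14, 5.99 and 6.96 CPM in Psi RNAi, 4.99, 4.30 and 4.95 in Myc RNAi, and 4.68, 6.85 and 5.49 CPM in control, and was called in no comparison. Rpt6R stood at 1.80, 1.30 and 1.89 CPM in Psi RNAi, 0.507, 0.999 and 1.34 in Myc RNAi, and 0.604, 0.568 and 0.877 CPM in control. All its Psi RNAi libraries were above control, yet with 139 counts in Psi RNAi against 61 counts in control over 3 libraries each the difference of 1.28 ± 0.40 was not called (adjusted p = 0.073), nor was that of 0.47 ± 0.40 in Myc RNAi (adjusted p = 0.41). Among the 8 testis markers, sa, aly, betaTub85D and dj were at or near 0 in every library, and the list summed to between 4.36 and 9.0 CPM. The marker vis was highest, with means of 6.04 CPM in Psi RNAi, 3.83 in Myc RNAi and 6.82 in control. It was called lower in Myc RNAi (-0.83 ± 0.16, adjusted p = 0.0032), and bam and topi were called in no comparison. Prosbeta2R2, Prosbeta5R1 and Rpn13R did not pass the filter on low counts. The highest of them, Prosbeta2R2, had 2 counts in Psi RNAi, 6 in Myc RNAi and 16 in control over 3 libraries each.

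Genes that work with the proteasome were examined in 4 lists, of proteasome regulators and assembly factors, of ubiquitin and its activation, of shuttle and p97 factors, and of regulators and targets of Cnc. In Psi RNAi edgeR called 0 of the 8, 6, 8 and 11 genes tested in these lists, beside 1.80% of all tested genes called higher and 2.27% lower. At an unadjusted p below 0.05 there were 1, 2, 2 and 4 of them, beside 13.1% of all tested genes higher and 14.4% lower. This share was close to that of genes in general. DESeq2 called 0, 1, 2 and 1, beside 450 higher and 424 lower over all genes. The genes of smallest p were Uch-L5, a deubiquitinase that docks at Rpn13 (0.12 ± 0.05, adjusted p = 0.16), RpL40, a fusion of ubiquitin with a ribosomal protein (0.12 ± 0.04, adjusted p = 0.092), Ufd1-like, a cofactor of the p97 unfoldase (0.17 ± 0.04, adjusted p = 0.038), and Gclc, an enzyme subunit of glutathione synthesis (-0.33 ± 0.07, adjusted p = 0.013).

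In Myc RNAi 2 of the 33 tested genes of these lists were called higher and 6 lower, beside the 7.60% and 11.4% of all tested genes given above. REG, which encodes the proteasome activator known in mammals as PA28 gamma, an alternative cap on the core, stood at 278, 293 and 269 CPM in Psi RNAi and fell to 189, 191 and 187 in Myc RNAi, against 289, 288 and 289 CPM in control. The Myc RNAi libraries were far below all others. Its change was -0.61 ± 0.04 in Myc RNAi (adjusted p = 2.3e-06) and it was the only one of 8 regulators called. The ubiquitin precursors that are fused to ribosomal proteins fell further. RpS27A stood at 780.5, 811 and 791 CPM in Myc RNAi, against 1541, 1556 and 1542 CPM in control (-0.96 ± 0.04, adjusted p = 2.2e-07), and RpL40 at 781, 807 and 820 CPM in Myc RNAi, against 1446, 1435 and 1365 CPM in control (-0.82 ± 0.04, adjusted p = 3.2e-07). The polyubiquitin genes did not share this: Ubi-p63E was 0.31 ± 0.14 and Ubi-p5E 0.08 ± 0.10, neither called. In the shuttle list Ubqn, the fly ubiquilin, which carries ubiquitinated proteins to the proteasome, fell by 0.23 on the log2 scale (SE 0.05, adjusted p = 0.0038), a call lost without control replicate 1, 2 or 3 or Myc RNAi replicate 1 (adjusted p up to 0.19 over all alternatives).

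In the Cnc list, cnc itself was close to control in both knockdowns (-0.03 ± 0.04 in Psi RNAi and -0.04 ± 0.04 in Myc RNAi, neither called). Keap1, which holds Cnc in check, fell in Myc RNAi (-0.46 ± 0.07, adjusted p = 0.0012), as did Gclm, the regulatory partner of the catalytic subunit Gclc (-0.45 ± 0.06, adjusted p = 0.00055). Gclc and the glutathione transferase GstD1 rose in Myc RNAi (0.32 ± 0.06, adjusted p = 0.0052, and 0.23 ± 0.05, adjusted p = 0.0093). The list thus held 2 genes called higher and 2 called lower, and its median was -0.04. The calls of Gclc and GstD1 were each lost in 7 of 14 alternatives, among them every fit without a Myc RNAi replicate and those without control replicate 2 or 3, with adjusted p up to 0.024 for Gclc and 0.043 for GstD1.

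Between the knockdowns, REG, RpL40, RpS27A, Ubqn, Keap1, Gclm and the ubiquitin-conjugating enzyme gene eff were called higher in Psi RNAi than in Myc RNAi, at 0.57, 0.94, 1.03, 0.21, 0.42, 0.50 and 0.22 on the log2 scale, and Gclc and GstD1 lower, at -0.64 and -0.39. These are 7 and 2 of the 33 genes, beside 12.8% and 9.53% of all tested genes. The adjusted p of these 9 genes ran from 1.2e-07 for RpS27A to 0.0080 for eff. The call of eff was lost in 11 of 14 alternatives (adjusted p up to 0.30), that of Ubqn in 7 (up to 0.34) and that of Keap1 in 2 (up to 0.015).

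**Figure D5:**
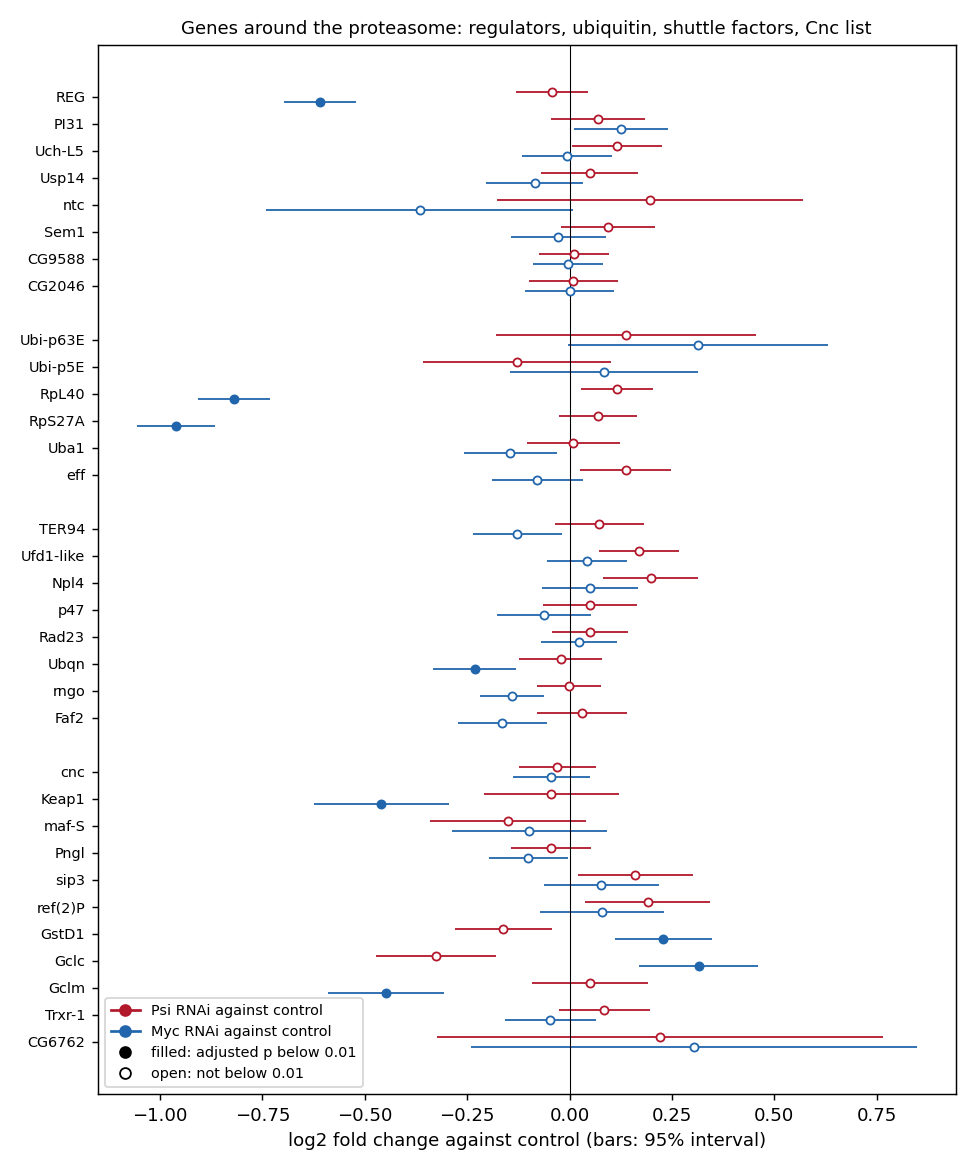
Log2 fold change with 95% intervals of the 33 tested genes of 4 lists, from top to bottom proteasome regulators, ubiquitin genes, shuttle and p97 factors, and the Cnc list, with Psi RNAi (red) above Myc RNAi (blue) in each row, both against control. Filled points passed an adjusted p of 0.01: all 8 belong to Myc RNAi, with RpS27A (-0.96), RpL40 (-0.82) and REG (-0.61) farthest to the left.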

How the data were processed

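The authors sequenced stranded poly(A) libraries and deposited 1 count table per library, whole read pairs per gene, made with TopHat2 2.1.1 and HTSeq 0.6.1 on a FlyBase Release 6 genome (FastQC 0.11.6 for quality), with the role of each tool taken from the study's methods. Their tables of fold changes and p-values (DESeq2 1.12.0) served only for gene symbols, their splicing tables were not used, and 48 columns of per-library values in these tables were not used. The summary lines of the count files were left out: pairs in no gene were 1.28% to 1.90% of a file, ambiguous pairs 1.52% to 1.80%.

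Counts were tested with edgeR 4.0.16 (R 4.3.3, TMM scaling, filterByExpr, robust quasi-likelihood fit over all 9 libraries, no covariate). P-values were adjusted by Benjamini-Hochberg over 9235 genes within a contrast. Standard errors are the log2 fold change over the root of the F statistic. Errors given with CPM are SD. Sums were compared by exact permutation (scipy 1.17.1). Gene positions and exon lengths are from the Ensembl annotation of Release 6. Alternatives were DESeq2 1.42.0, 3 other scalings, no filter, only the groups compared, a replicate block, each library left out, and 2 libraries left out together. The fits were also run on simulated counts. Their spread was fixed in advance, so that run does not show how the fits perform at the spread of these libraries. Within groups, replicates differed by more than sampling noise (chi-square per degree of freedom of at least 18.1).

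Same-numbered Myc RNAi and control libraries deviated together (correlations 0.23 to 0.44, beside -0.36 to 0.15 for different numbers). The number was treated as a pairing there, from the data alone, but was not part of the main fit. Psi RNAi and control (0.09 to 0.30, beside -0.29 to 0.04 for different numbers) and Psi RNAi and Myc RNAi (-0.21 to 0.03) were not treated so. The replicate block was nevertheless fitted over all 9 libraries, Psi RNAi included.

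The members and lists were chosen with earlier results of these data known. Values per library are given for Pomp, members called, the member of smallest p in each direction, and the highest and lowest member per kb of each group; from the lists, every gene called or else that of smallest p. The other members called between the knockdowns, Rpn2 and the genes near Pomp were named after their values were seen. Of 10 regulators listed, 8 were matched. Promoter and protein sequences were not analysed here.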

Additional observations from a re-analysis of the deposited data

How the results depend on the processing

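In Psi RNAi the count of 1 member called, the members' median and their summed CPM kept their direction and side of the threshold under every alternative run for them (median 0.07 to 0.13 and sum 447 to 742 CPM with single libraries left out). The sum was run with the other scalings, without Rpn2, with single libraries left out and, added after seeing the data, without control 1 and Psi RNAi 1 (388 CPM). In Myc RNAi the count of 1 became 2 with DESeq2 and with the replicate block, and 0 with RLE size factors, total-count scaling or both control 1 and Psi RNAi 1 left out, and 0 to 2 with single libraries left out; total-count scaling also turned the median (0.084) and the sum (317 CPM). Leaving out single libraries gave medians from -0.12 to -0.03 and sums from -664 to -243 CPM. Between the knockdowns the count of 6 became 13 with DESeq2, 11 with the replicate block (a contrast whose numbers do not pair the libraries), 3 with only the groups compared, 2 without control 1 and Psi RNAi 1, 1 with total-count scaling, and 1 to 11 with single libraries left out; the median was 0.028 with total-count scaling and 0.14 to 0.23 with single libraries left out, and the sum 269 CPM with total-count scaling and 848 to 1268 CPM with single libraries left out. Why total-count scaling differs was not tested. It gave 2015 genes higher and 717 lower in Myc RNAi, beside 702 and 1052 with TMM, and 761 higher and 2132 lower between the knockdowns, beside 1180 and 880. DESeq2 called 874 genes in Psi RNAi, beside 376 by edgeR. Leaving out Prosalpha1, chosen after seeing the data, changed no count and moved no median by as much as 0.01. The replicate block changed the call of 5 named genes: Gclc was called in Psi RNAi, Myc and Rpt2 in Myc RNAi, and Prosalpha5 and Rpn11 were not called between the knockdowns. The small difference of Psi in Myc RNAi was 0.13 with total-count scaling and -0.082 to 0.0050 with single libraries left out, and that of Myc between the knockdowns -0.12 to 0.064.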

Other observations

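The ratio of summed 20S to summed 19S counts, taken within a library, was 0.552, 0.539 and 0.528 in Psi RNAi, 0.560, 0.554 and 0.553 in Myc RNAi, and 0.551, 0.548 and 0.534 in control. All Myc RNAi libraries were above all others, by 0.011 on average over control (exact two-sided permutation test p = 0.1, the smallest that 3 against 3 allows).

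A further 10 genes bear proteasome symbols only in the reference table and lie outside the rule, among them Prosalpha3T, Prosalpha4T1, Prosalpha6T, Prosbeta2R1, Rpn12R and Rpt4R. Each had at most 1 count over all 9 libraries.

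Exons of 15 of the 38 members share bases with an exon of another gene on the opposite strand, by at most 437 bases, the value for Pomp, and no member shares exon bases with a gene on its own strand.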
